A study of Rattus norvegicus with 4 samples.

Results

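Circular RNAs (circRNAs) whose host gene encodes a chromatin regulator were examined in rat sciatic nerve after crush. A circRNA is closed by a back-splice, in which the end of an exon is joined to the start of an earlier one or of itself, and the reads that cross this junction are its count. Members were chosen by the host symbol that the files gave. They were the KMT, SETD, NSD, EHMT and SUV histone methyltransferases with Dot1l, and the KDM demethylases. The CHD, SMARC, INO80, GATAD and Bptf remodelling genes were taken too, with the ARID, KAT and NCOA genes, Ep300 and Crebbp. So were the HDAC and NCOR genes with Rere and Cdyl, the TET and DNMT genes, and the BRD and PHF readers. The MLLT and ASXL genes, Ubn2, and Mediator genes whose symbols start with Med1 completed the set. EPC genes were also named by the rule, but none was among the members. Ash1l was left out by this rule. It took 174 of 4942 circRNAs, from 73 of 2327 host genes. Ncoa4, taken by its symbol, is best known for ferritin turnover and had 2 reads in 1 library.

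The nerves came from Sprague-Dawley rats at postnatal week 6. In the crush group 3 mm of sciatic nerve was crushed 2 times for 15 s with a 3 s pause, while sham surgery only exposed the nerve. Tissue was taken 24 h after surgery, as the crushed stretch with 1 mm at both ends. Each group had 2 libraries of total RNA. The labels name no transgene or drug for either group, and they do not state that they were taken from different animals. The p-values therefore measure the spread between these samples alone, which may be technical. The comparison of the groups asks which circRNAs differ after crush.

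Chromatin regulators set which genes a cell can read. Writers add methyl or acetyl groups to histones, erasers remove them, readers bind them, and remodelling complexes slide or evict nucleosomes, while TET and DNMT enzymes do the same for methyl groups on DNA. In peripheral nerve, deacetylases and Polycomb factors are known to take part in Schwann cell myelination and in the response of these cells to injury. A count of back-splice reads measures the circular product of a host gene, not its messenger RNA or its protein.

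Chromatin regulator circRNAs took a larger share of the junction reads in both crush libraries than in either sham library. For crush replicates 1 and 2 the members had 394 of 8250 and 459 of 9027 junction reads, and for sham replicates 1 and 2 they had 262 of 9018 and 308 of 8726. These are shares of 4.78% (95% exact Clopper-Pearson interval 4.33% to 5.26%) and 5.08% (4.64% to 5.56%) after crush, against 2.91% (2.57% to 3.27%) and 3.53% (3.15% to 3.94%) after sham. No interval of a crush library overlapped that of a sham library, and the intervals cover counting error only. The mean share of the crush libraries was 4.93% ± 0.22 and that of the sham libraries 3.22% ± 0.44 (SD, n = 2), which differ by 1.71 percentage points. No test was run on this sum. The most abundant host, Arid1a, was listed at 0 in sham replicate 1, and without it the shares were 3.95% and 4.02% after crush and 2.91% and 3.03% after sham, a difference of 1.02 points. A share also depends on the reads of all other circRNAs. In SRPBM, the authors' signal of spliced reads scaled to a library total, the members summed to 28.0 ± 0.79 after crush and 21.7 ± 3.63 after sham (SD, n = 2). Of these sums Arid1a gave 5.34 ± 0.57 and 1.73 ± 2.45.

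**Figure D1:**
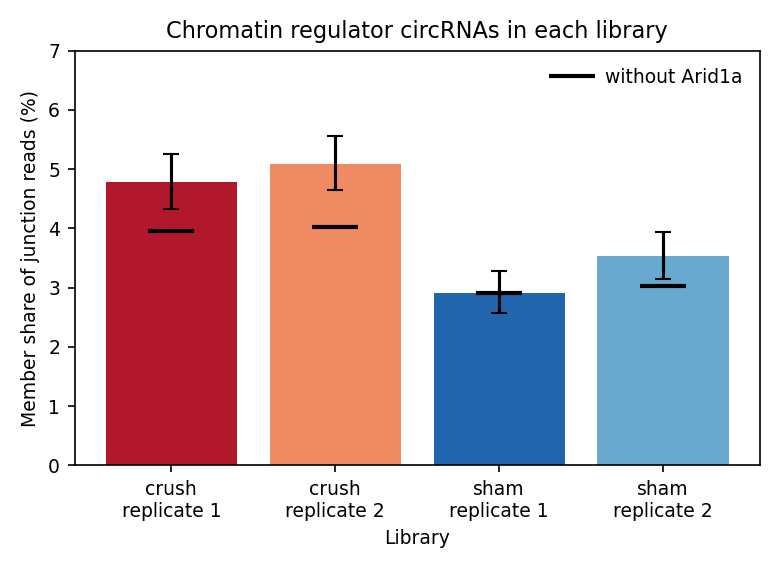
Share of all junction reads held by chromatin regulator circRNAs, in percent, for each of the 4 libraries (bars), with 95% exact binomial intervals and with the share left without Arid1a (black dashes). The crush libraries stand at 4.78% and 5.08% and the sham libraries at 2.91% and 3.53%, and without Arid1a the order of the groups is the same.

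Hosts that mark leukocytes also had more circRNA reads after crush. Of 18 such genes 13 had a circRNA, with 87 and 75 crush reads beside 3 and 3 sham reads, while Fyb, Itgb2 and Csf1r were among those with none in any library. The 6 tested all met the read filter described with the host test through crush alone, so their direction was fixed by it. Of these 5 had no sham reads, and only Csf3r passed (adjusted p = 0.0490, edgeR). Of 14 Schwann cell and myelin genes only Mbp and Pmp22 had a circRNA, with 3 reads each in sham replicate 2, so genes that define the labelled tissue gave few circRNA reads, and Prx and Sox10 were among those with none. The skeletal muscle list ran the other way, at 76 and 84 crush reads beside 207 and 235 sham reads, of which the single gene Mlip gave 76 and 79 and then 204 and 226. Of the endothelial and perineurial list 2 of 8 genes had a circRNA, with 8 and 8 reads against 7 and 7, and of the fibroblast list 1 of 6, with 0 and 7 against 0 and 0. The part of these cell types in the members' values was not tested, and in such tissue fewer cells of a type and less RNA per cell cannot be told apart.

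Reads were concentrated in few hosts. The 5 hosts with the most reads, Arid1a, Kmt2e, Rere, Ubn2 and Cdyl, held 44.9% of all 1423 member reads, and the first 10 held 62.5%. Reads were listed in all 4 libraries for 15 hosts, in 3 for 16, in 2 for 16 and in 1 for 26. A count was either 0 or at least 2, so a listed 0 can hide reads. Such zeros fell among abundant members too. In 7 cases a member circRNA had at least 20 reads in a library, and in 2 of them, Arid1a and Kmt2e, the other library of the group was listed at 0, against 18 of 188 cases over all circRNAs.

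By family, the nucleosome remodellers held the most reads, at 131 and 143 for crush and 43 and 71 for sham over 23 hosts. Arid1a gave 53.6% of them, and the rest of the family had 63 and 47 reads against 43 and 27. The family was formed by symbol and includes Arid3a (3 and 8 against 0 and 0) and Arid5b (3 and 3 against 0 and 2). These are DNA-binding proteins and not known remodeller subunits, and without them and Arid1a the groups overlapped. Deacetylases and corepressors followed with 71 and 92 against 62 and 53, and histone methyltransferases with 55 and 55 against 22 and 54. The Polycomb accessory and histone chaperone group had fewer reads after crush, 23 and 29 against 38 and 36, and Ubn2 held 83.3% of its reads. Histone demethylases had 31 and 18 against 24 and 20, and acetyltransferases with their partners 15 and 35 against 29 and 7, so that in both these families the groups overlapped. DNA methylation genes had 23 and 48 against 14 and 24, Mediator genes 23 and 21 against 11 and 17, bromodomain and PHD finger readers 18 and 18 against 9 and 18, and the MLLT genes 4 and 0 against 10 and 8. A family sum carries no test here.

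**Figure D2:**
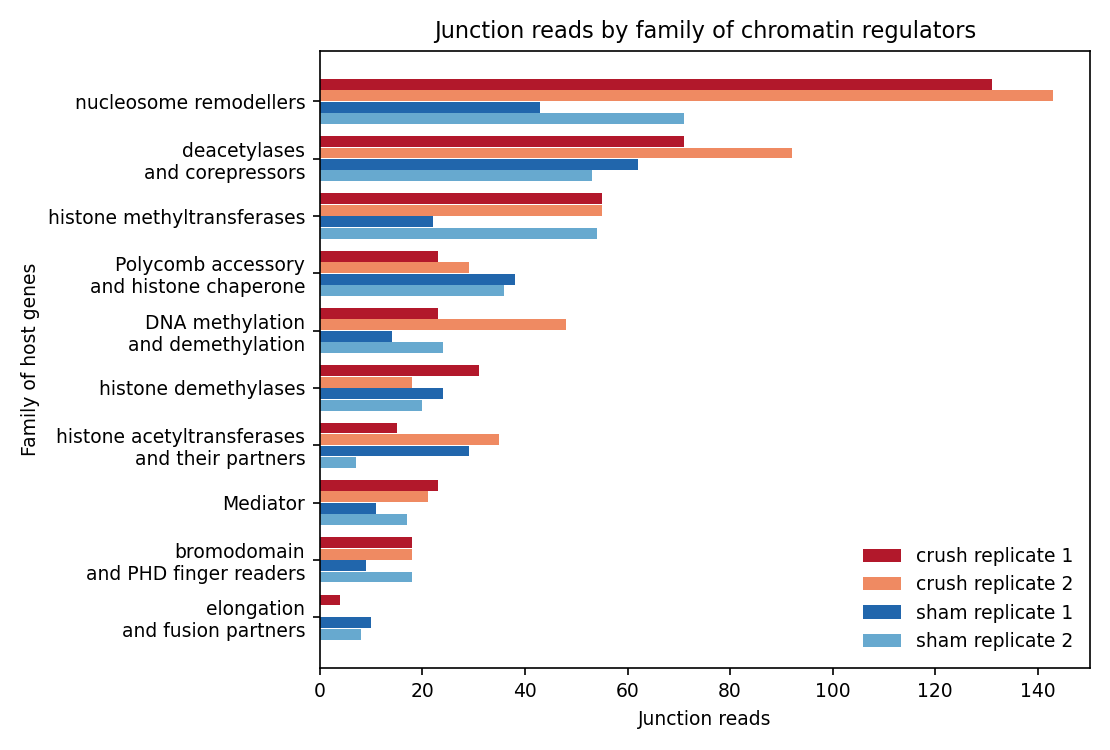
Junction reads (horizontal axis) summed over the circRNAs of each family of chromatin regulators, with 1 bar per library. The remodellers show the widest gap, 131 and 143 crush reads against 43 and 71 sham reads, and the Polycomb accessory and histone chaperone group runs the other way, with 23 and 29 against 38 and 36.

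For the test, junction reads were summed per host and all 434 hosts with at least 5 reads in at least 2 libraries were fitted together. Of the 73 members, 21 met this filter. None (0 of 21) passed an adjusted p of 0.05 (edgeR quasi-likelihood test with Benjamini-Hochberg adjustment over the 434), where 2.3% of all hosts tested did, 1.84% as higher after crush and 0.461% as lower. At an unadjusted p under 0.05 there were 4 members with higher and 1 with lower reads after crush, 23.8% of the 21, against 25.6% of all hosts tested, 16.1% as higher and 9.45% as lower. With DESeq2, 1 member passed, Cdyl, where 7.84% of all hosts with an adjusted p did. In junction reads, with no scaling for depth, both crush libraries lay above both sham libraries for 10 of the 21 (28.3% of all hosts tested). They lay below them for 3 (30.2%). In SRPBM, Rere and Hdac2 also lay below. The log2 change was above 0 for 16 of 21 (53.5% of all), with a median of 1.11 beside 0.11 over all hosts. Scaled by the SRPBM totals, it was above 0 for 13 of 21 members and for 187 of the 434 hosts, with medians of 0.72 and -0.30. A host can meet the filter through its higher group alone, which fixes its direction, so these counts are descriptive. Dot1l, Crebbp, Asxl1, Ino80 and Gatad2a met it through crush alone, and Mllt3 and Kdm6a through sham alone.

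**Figure D3:**
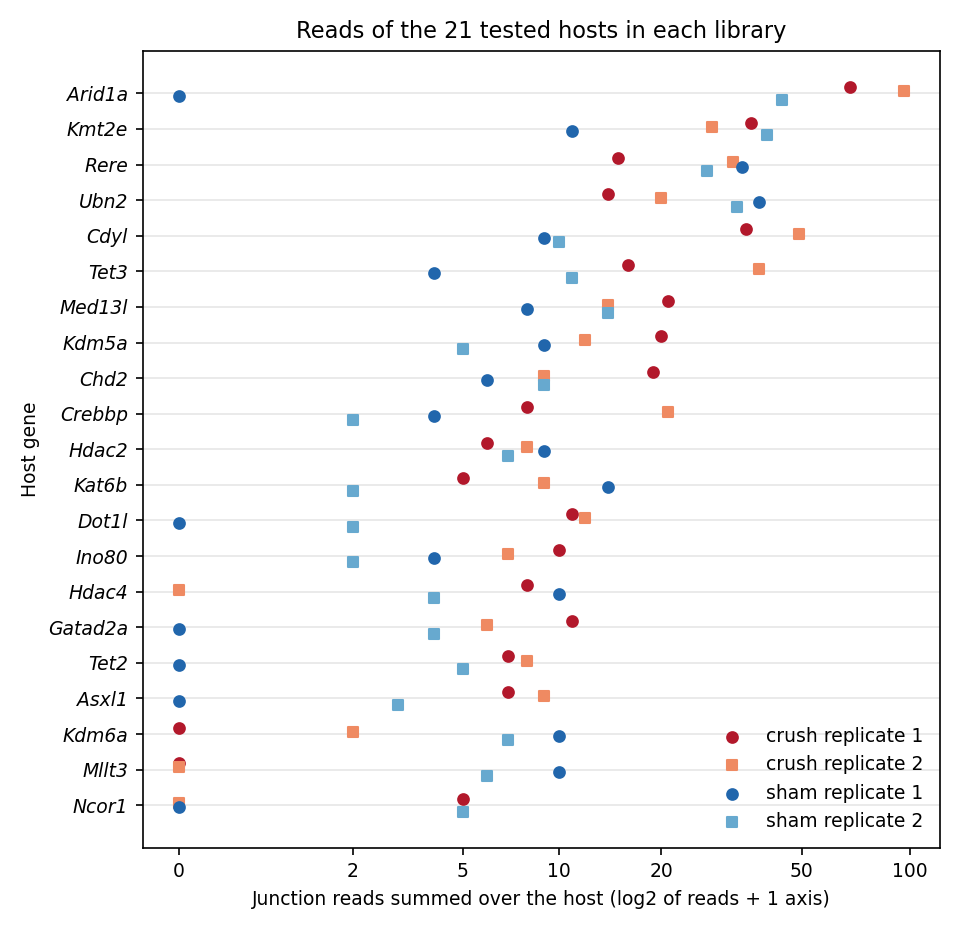
Junction reads of each of the 21 tested hosts in each library, on an axis of log2 of reads plus 1. Circles are replicate 1 and squares replicate 2, red crush and blue sham. Cdyl shows the groups apart (35 and 49 reads against 9 and 10), and Arid1a shows the sham libraries apart from each other (0 and 44).

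Among remodellers, Arid1a (ENSRNOG00000006137), a DNA-binding subunit of the SWI/SNF complex, had 68 and 96 reads in the crush libraries beside 0 and 44 in the sham ones. Both crush libraries were higher than both sham libraries, but the sham libraries differed from each other by more than crush replicate 1 differed from sham replicate 2. In SRPBM this was 5.34 ± 0.57 against 1.73 ± 2.45 (SD, n = 2), and the log2 change of 2.05 ± 1.30 (SE) had adjusted p = 0.366 (edgeR). Without sham replicate 2 the log2 change was 9.42 (adjusted p = 8.46e-16), fitted against a listed 0 and thus no bound, and without sham replicate 1 it was 0.88. The reads came almost wholly from an exonic circRNA at chromosome 5, 151944769 to 151947717, with 64 and 88 reads for crush and 0 and 44 for sham (log2 change 1.93 ± 1.55, adjusted p = 0.502, edgeR). All circRNA positions here are on Rnor_6.0, as the submitters' processing notes name it, and the notes do not say whether they count from 0 or 1. The other 4 circRNAs of Arid1a were listed in crush libraries only, with 2 to 6 reads each.

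Chd2, an ATP-dependent remodeller that binds active genes, had 19 and 9 reads against 6 and 9, so the groups overlapped (log2 change 1.11 ± 0.65, adjusted p = 0.334). Ino80, the ATPase of the INO80 complex, had 10 and 7 against 4 and 2 (log2 change 1.69 ± 0.81, adjusted p = 0.243). Gatad2a, a subunit of the NuRD complex, had 11 and 6 against 0 and 4. For Ino80 and Gatad2a both crush libraries were above both sham libraries. The most abundant circRNA of Ino80 had 2 and 2 against 4 and 2, and its other 4 were listed in crush libraries only, 1 of them on the other strand.

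The methyltransferase Dot1l (ENSRNOG00000032546), which methylates histone H3 in the body of active genes, had 11 and 12 crush reads and 0 and 2 sham reads. Crush was above sham in every library, with a log2 change of 3.56 ± 1.07 and adjusted p = 0.0858 (edgeR). With 2 sham reads in all, the ratio of crush to sham reads, pooled by group and scaled by the SRPBM totals, was 9.96. Its counting interval was 2.46 to 87.2. Dot1l met the read filter, and also that of at least 10 reads in 2 libraries, through crush alone, so its direction was fixed. At the latter filter, with fewer hosts tested, its adjusted p was 0.0493. Without sham replicate 2 it was 0.0151, for a log2 change of 6.60 fitted against a listed 0, and without sham replicate 1 it was 0.189, for 2.44. Kmt2e (ENSRNOG00000021614), a SET and PHD domain protein of the MLL family, had 36 and 28 reads where sham had 11 and 40, and its log2 change was 0.52 ± 0.66 (adjusted p = 0.671), both crush libraries lying between the sham ones. Without sham replicate 2 its log2 change was 1.72 (adjusted p = 0.0371, edgeR), and without sham replicate 1 it was -0.33. Its main circRNA, exonic at chromosome 4, 8223840 to 8239403, was listed with 22 and 17 crush and 0 and 30 sham reads.

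Among demethylases, Kdm5a, which removes methyl groups from histone H3 at promoters, had 20 and 12 reads against 9 and 5, with a log2 change of 1.41 ± 0.60 and adjusted p = 0.202 (edgeR). Kdm6a, an X-linked demethylase that opposes Polycomb, had 0 and 2 against 10 and 7, with a log2 change of -2.75 ± 1.18 and the same adjusted p. Its ratio of crush to sham reads, pooled by group and scaled by the SRPBM totals, was 0.102 on 2 crush reads, with a counting interval of 0.0114 to 0.429. Both Kdm genes kept their groups apart, on opposite sides. The reads of Kdm6a came from 4 different circRNAs, none of which was listed in both sham libraries.

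Of the acetyltransferases, Crebbp, a coactivator that acetylates histones at enhancers, had 8 and 21 reads against 4 and 2, spread over 7 circRNAs (log2 change 2.42 ± 0.77, adjusted p = 0.102, unadjusted p = 0.0178). Its paralog Ep300 was not tested, with 0 and 3 reads against 6 and 0. Kat6b, a MYST family acetyltransferase, had 5 and 9 against 14 and 2, and its log2 change of 0.04 ± 0.93 turned negative under 6 of 12 alternatives, so that no direction can be given.

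Cdyl (ENSRNOG00000032215), a chromodomain corepressor, had the smallest p of the members. Its reads were 35 and 49 in crush and 9 and 10 in sham, so every crush library was more than 3 times above every sham library. In SRPBM this was 2.73 ± 0.28 against 0.721 ± 0.093 (SD, n = 2), and the log2 change was 2.33 ± 0.45, with adjusted p = 0.0522 (edgeR), just outside the threshold. The value passed under 8 of 14 alternatives, with adjusted p from 0.00286 to 0.392 over all of them. The most abundant circRNA of Cdyl held 69.9% of its reads. When the most abundant circRNA of every host was left out, the adjusted p of Cdyl was 0.0491 (edgeR). Its remaining reads, 17 and 12 against 2 and 0, met the filter through crush alone, so the direction was fixed.

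No other corepressor came near the threshold. Rere, the atrophin corepressor with the most circRNAs of any member, had 15 and 32 crush reads and 34 and 27 sham reads over 12 circRNAs (log2 change -0.17 ± 0.48, adjusted p = 0.870, edgeR). Hdac2, a class I deacetylase, had 6 and 8 reads against 9 and 7 from a single circRNA, which was listed in all 4 libraries. Its log2 change of 0.02 ± 0.65 took the other sign under 6 of 12 alternatives, all scalings by library total among them. Hdac4 had 8 and 0 against 10 and 4, and Ncor1 5 and 0 against 0 and 5, with no circRNA of Ncor1 in more than 1 library. For Hdac4 and Ncor1 the spread between replicates was as wide as the difference between groups, in reads and in SRPBM. The groups of Rere and Hdac2 overlapped in unscaled reads, but in SRPBM both crush libraries lay below both sham libraries. The direction for Rere and Hdac2 thus depended on the scaling or the libraries used.

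The DNA demethylases Tet3 and Tet2, which oxidise methylcytosine, both had more reads in each crush library than in either sham library. Tet3, from a single exonic circRNA at chromosome 4, 115104274 to 115106428, was listed with 16 and 38 crush and 4 and 11 sham reads (log2 change 2.01 ± 0.70, adjusted p = 0.133, edgeR). When a library was left out, its adjusted p was 0.0300 without crush replicate 1, 0.281 without crush replicate 2, 0.370 without sham replicate 1 and 0.00772 without sham replicate 2, and its log2 change ran from 1.26 to 2.89. Tet2 had 7 and 8 against 0 and 5 (adjusted p = 0.406, edgeR). Its exonic circRNA had 5 and 8 against 0 and 3. The other reads, 2 and 0 against 0 and 2, came from an intronic circRNA on the other strand. Tet1 was listed in sham replicate 1 only, with 7 reads, and Dnmt3a, a de novo DNA methyltransferase, had 0 and 2 against 3 and 8. Neither Tet1 nor Dnmt3a was tested.

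Ubn2 (ENSRNOG00000005564), a subunit of the HIRA histone chaperone complex, had 14 and 20 crush reads and 38 and 33 sham reads, over 10 circRNAs. Both crush libraries were below both sham libraries, with a log2 change of -0.85 ± 0.43 and adjusted p = 0.260 (edgeR). Mllt3, a reader of acylated histones in the super elongation complex, had 0 and 0 against 10 and 6 (adjusted p = 0.0836, edgeR). In SRPBM it was at least 3.02-fold lower when every library at 0 is set to a floor of 3 reads. This floor is assumed, and a listed 0 may hide more reads, so folds against it are not strict bounds. Mllt3 met the read filter through sham alone, so its direction was fixed. Asxl1, a partner of the Bap1 deubiquitinase, had 7 and 9 against 0 and 3 (log2 change 2.50 ± 1.18, adjusted p = 0.237). Without sham replicate 2 its log2 change was 6.08, again fitted against a listed 0 (adjusted p = 0.0151), and without sham replicate 1 it was 1.36 (adjusted p = 0.441, edgeR). Med13l, of the Mediator kinase module, had 21 and 14 against 8 and 14 (log2 change 0.87 ± 0.57, adjusted p = 0.384), with a tie between crush replicate 2 and sham replicate 2.

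**Figure D4:**
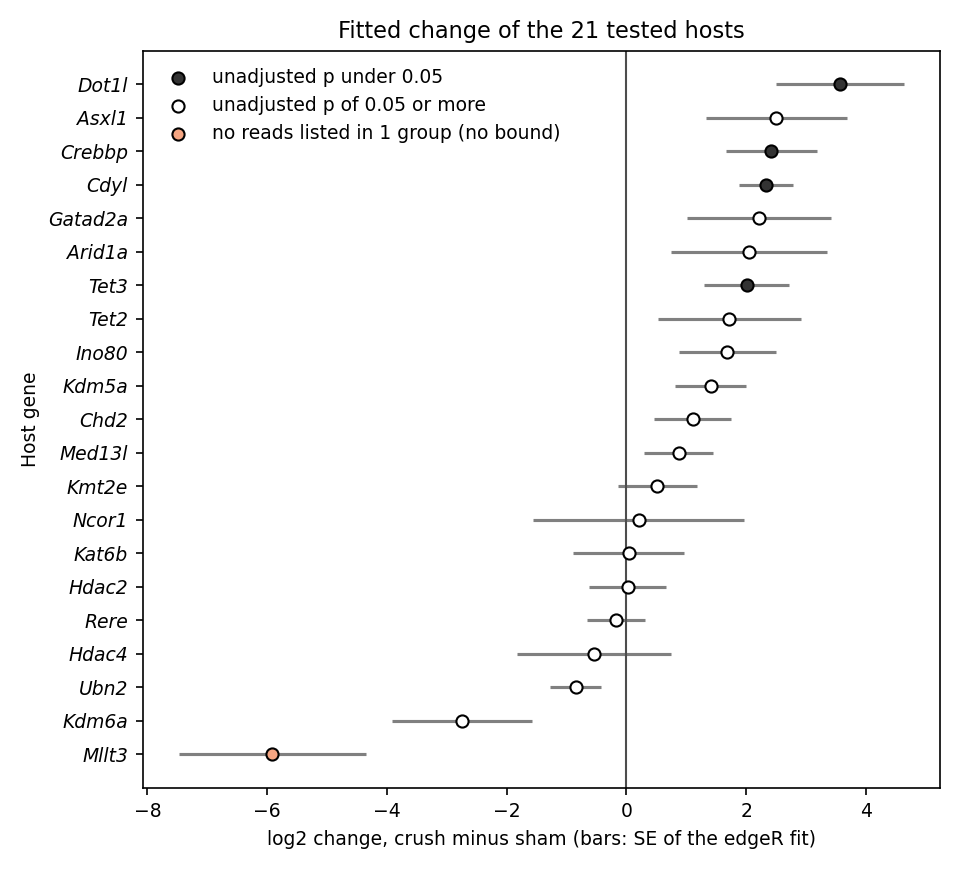
Fitted log2 change (crush minus sham, horizontal axis) with the standard error of the edgeR fit for the 21 tested hosts. Filled points have an unadjusted p under 0.05, and Mllt3 (orange) had no reads in either crush library, so its value is not a bound. From Dot1l at 3.56 down to Kat6b and Hdac2 near 0, 16 hosts are above 0.

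The 52 untested hosts held 80 circRNAs and 299 of the 1423 member reads, 72 and 79 of them crush and 82 and 66 sham. Of these hosts, 15 had reads after crush only and 14 after sham only, beside 40.2% and 34.8% of all 1893 hosts below the filter. The groups did not overlap for 5 with more reads after crush and 3 with fewer, beside 7.82% and 6.55% of those 1893. Arid3a, an AT-rich DNA-binding protein, was listed after crush only, with 3 and 8 reads, at least 1.53-fold higher against the same floor. Ino80d, another INO80 subunit, had 0 and 0 against 4 and 7, at least 2.12-fold lower. Phf14 (6 and 3 against 3 and 3), Phf3 (2 and 7 against 2 and 4) and Setd5 (3 and 6 against 3 and 2) were the untested hosts listed in every library. Well-known remodellers and methyltransferases were thin: Chd4 had 3 reads in all, Smarca2 3, Arid1b 3, Arid2 2 and Kmt2a 2.

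At the level of single circRNAs, 20 of the 174 had at least 5 reads in at least 2 libraries. Of these, 1 rose and 1 fell (edgeR, adjusted p under 0.05 over 428 circRNAs), where 11.9% of all tested passed, 7.48% as higher and 4.44% as lower. An unadjusted p under 0.05 was reached by 4 as higher and 1 as lower (27.8% of all tested, 16.8% higher and 11.0% lower), and with DESeq2 0 members passed, where 9.15% of all with an adjusted p did. An exonic circRNA of Dot1l at chromosome 7, 11808382 to 11817191, rose, with 5 and 6 crush reads beside 0 and 0 for sham (adjusted p = 0.0454), at least 1.59-fold. An exonic circRNA of Ubn2 at chromosome 4, 66172555 to 66232564, fell, with 0 and 0 crush reads beside 5 and 7 for sham (adjusted p = 0.0474, edgeR). Against the same floor this was at least 2.30-fold. Both met the filter through the group in which they were listed. Their adjusted p was 0.135 for each with at least 2 reads in 2 libraries, and 0.452 and 0.462 with no filter.

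Among the 20, crush lay above sham in unscaled reads for 9 (25.5% of all tested circRNAs) and below for 2 (29.2%). The log2 change was above 0 for 14 (51.4%). The filter can fix a direction here too, so these counts are descriptive. The Dot1l circRNA that passed, the longer one of Cdyl and the exonic one of Tet2 met the filter through crush alone. So did the Med13l circRNAs with an end at 43501060, while the longest Ubn2 circRNA met it through sham alone. The longer Cdyl circRNA at chromosome 17, 29730437 to 29757605, had 10 and 6 crush reads and 0 sham reads (adjusted p = 0.0591, edgeR). Against the same floor it was at least 2.38-fold higher. The short, most abundant one, 29730437 to 29731094, had 18 and 37 against 7 and 10 (log2 change 1.88 ± 0.57, adjusted p = 0.103). Kdm5a had its main circRNA at chromosome 4, 152921913 to 152925673, with 17 and 10 against 0 and 5 (adjusted p = 0.203). The 3 circRNAs of Med13l differed among themselves: that from 43501060 to 43510832 on chromosome 12 had 8 and 5 against 0 and 2, that from 43501060 to 43576734 had 5 and 9 against 3 and 3, and that from 43576497 to 43576734 had 8 and 0 against 5 and 9. None of these 3 passed (adjusted p from 0.207 to 0.861, edgeR).

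Sets of circRNAs within a host often shared an end. Of 138 circRNAs from the 37 hosts with more than 1, 89 shared a back-splice end with another circRNA of the host, in 25 hosts. Over the 174 members this is 51.1%, beside 42.2% of all circRNAs with 1 host. A host with only 1 circRNA cannot share an end, and such hosts were 49.3% of member hosts and 62.2% of all. These shares therefore do not show that members share ends more often at a like number of circRNAs per host. Kmt2e used the downstream end at 8223840 for 5 of its 6 circRNAs, Cdyl the downstream end at 29730437 for 4 of 5, and Asxl1 the upstream end at 148837814 of chromosome 3 for all 4. Ubn2 used the upstream end at 66172555 for 4 of 10, over spans of 8409 to 60009 bases. For Rere, at 167486001 and 167516581 of chromosome 5, 2 upstream ends served 4 circRNAs each. The 3 longer circRNAs from the Cdyl end were listed in crush libraries only.

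**Figure D5:**
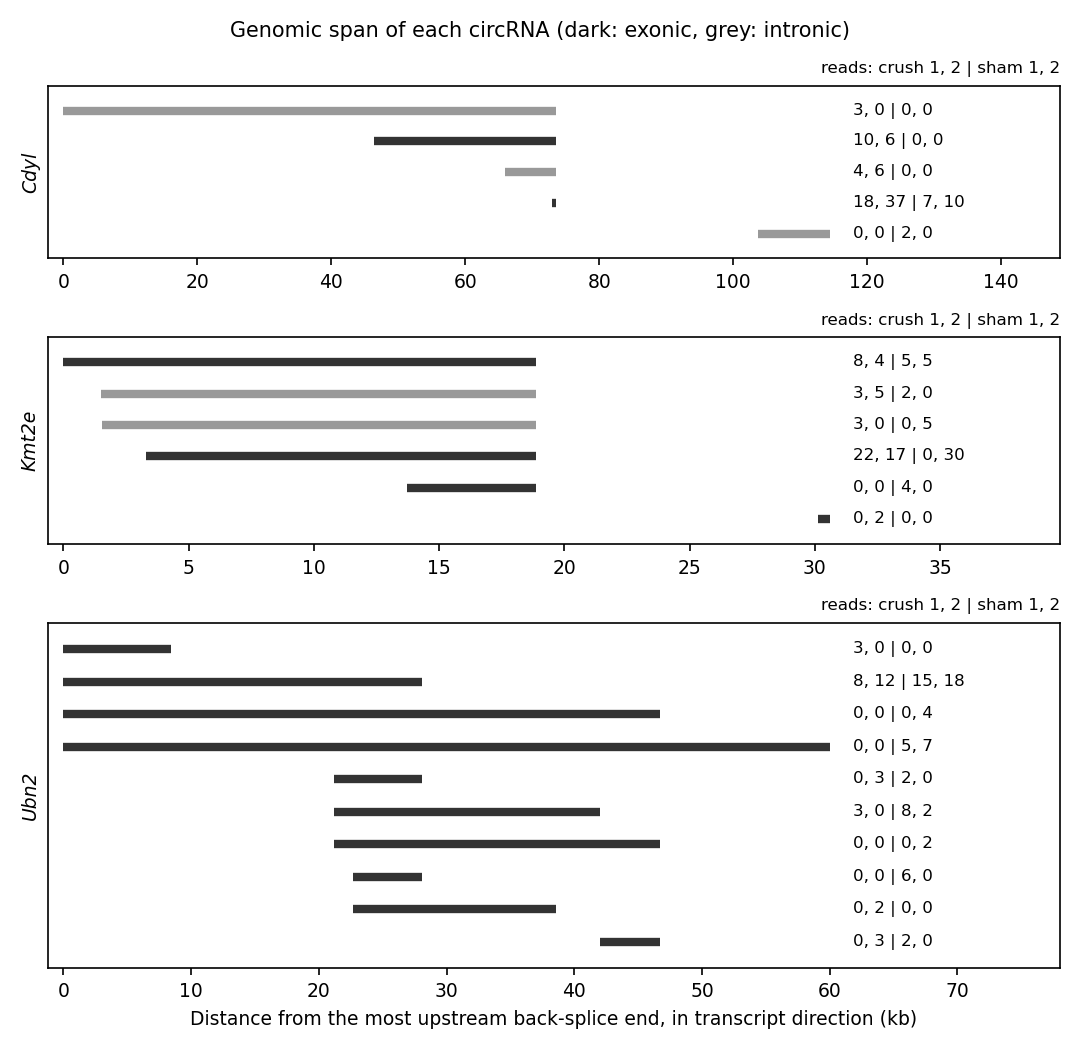
Genomic span of every circRNA of Cdyl, Kmt2e and Ubn2, drawn from the most upstream back-splice end in the direction of the transcript (kb), with the reads of crush replicates 1 and 2 and sham replicates 1 and 2 at the right. Dark bars are exonic and grey intronic circRNAs. Kmt2e shows 5 of 6 bars ending at 1 place, and the longest Ubn2 bar has reads in sham only (5 and 7).

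The files classed 150 of the members as exonic and 24 as intronic, so 86.2% were exonic, beside 88.7% of all circRNAs with 1 host. Of the 24 intronic ones, 13 shared an end with an exonic circRNA of the same host and strand. The median genomic span was 8602.5 bases (8532 for all), from 141 to 129429, and it includes introns. Members had 2.38 circRNAs per host, beside 1.81 over all hosts, and 23.3% of member hosts had at least 4, beside 9.88%. Most member circRNAs, 113 of 174 (64.9%), were listed in 1 library and 13 in all 4, beside 72.4% and 6.13% of all circRNAs with 1 host. Both crush libraries and no sham library listed 10 (5.75%, beside 4.37% of all), and the reverse held for 3 (1.72%, beside 3.59%). These shares are given as descriptions, with no test.

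A few circRNAs that the files classed as intergenic shared an end with a member. At 81143240 on chromosome 3, 3 of them ended where a circRNA of Phf21a, a PHD finger subunit of a demethylase complex, ended. The most abundant, from 81127393, was listed with 151 and 102 crush and 111 and 107 sham reads, while the Phf21a circRNA had 2 and 0 against 0 and 5. A further intergenic circRNA, with 2 and 0 against 0 and 3 reads, shared an end with Mllt10 on chromosome 17. These reads are not in the member sums.

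Start-site windows of hosts were read from RefSeq (GRCr8), from 250 bases before to 50 after the start that the table holds for a gene. Of the 73 hosts, 63 had a window. The table gives 1 start a gene, which need not be the start of the transcript that was circularised. The windows of the hosts of the circRNAs that passed, Dot1l and Ubn2, and of the host with the smallest p, Cdyl, are shown because these members lay on opposite sides. Capitals mark a TGANTCA match (the AP-1 site) in Cdyl at chr17:29409708-29410007, minus strand, a GGGCGG match (the GC box) in Dot1l at chr7:9607046-9607345, minus strand, and 2 overlapping TGACG matches (the CRE half-site) on opposite strands in Ubn2 at chr4:68133011-68133310, plus strand.
Cdyl: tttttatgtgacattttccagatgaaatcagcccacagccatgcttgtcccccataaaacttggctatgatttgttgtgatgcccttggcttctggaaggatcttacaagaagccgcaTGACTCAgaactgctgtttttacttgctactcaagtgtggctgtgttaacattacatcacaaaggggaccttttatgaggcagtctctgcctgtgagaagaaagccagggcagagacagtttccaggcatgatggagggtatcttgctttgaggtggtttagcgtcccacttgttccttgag
Dot1l: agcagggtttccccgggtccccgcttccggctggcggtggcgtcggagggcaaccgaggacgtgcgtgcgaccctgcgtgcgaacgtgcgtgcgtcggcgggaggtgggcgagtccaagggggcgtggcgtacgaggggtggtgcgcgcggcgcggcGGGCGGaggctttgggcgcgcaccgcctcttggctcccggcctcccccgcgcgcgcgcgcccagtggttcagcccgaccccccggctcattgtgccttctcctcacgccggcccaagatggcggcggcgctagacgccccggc
Ubn2: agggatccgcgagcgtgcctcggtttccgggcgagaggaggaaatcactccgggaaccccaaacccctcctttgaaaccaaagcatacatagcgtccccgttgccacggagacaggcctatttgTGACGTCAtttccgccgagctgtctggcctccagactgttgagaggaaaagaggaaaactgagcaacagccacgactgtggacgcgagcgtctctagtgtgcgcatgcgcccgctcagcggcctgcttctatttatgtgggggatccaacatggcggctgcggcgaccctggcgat

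Searched on both strands, GGGCGG was in 44 of 63 member windows (69.8%, beside 43.1% of 18999 windows of protein-coding genes) and TGACG in 20 (31.7%, beside 24.2%). TGANTCA was in 1 member window, that of Cdyl (1.59%, beside 6.65%), and the TATA box, TATAAA, in 3 (4.76%, beside 13.1%). The median GC content was 65% in member windows, with 27 CpG dinucleotides, beside 55.3% and 12 in all. The Cdyl window differed from most, with 46% GC and 2 CpG. A match is a run of letters, and whether a factor binds there was not measured.

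Chromatin genes outside the name rule were taken from a list of 110, such as methyl-CpG binding proteins and Polycomb subunits. Of these 34 had a circRNA, with 135 and 100 crush reads against 53 and 58 sham reads, and 8 were tested. None of the 8 passed adjusted p under 0.05 (edgeR), and 3 had an unadjusted p under 0.05, all higher after crush (25.6% of all hosts tested, 16.1% as higher), with a median log2 change of 0.60 over the 8. Mbd2, a reader of methylated DNA, had 26 and 18 reads against 4 and 3 (log2 change 2.83 ± 0.59, adjusted p = 0.0558). Mbd1, its relative, had 11 and 9 against 0 and 0 (adjusted p = 0.0752), and Jmjd1c, a demethylase of the JmjC family, 12 and 6 against 0 and 0 (adjusted p = 0.0836). Mbd2, Mbd1 and Jmjd1c all met the filter through crush alone, so their direction was fixed by it. Morc3 had 14 and 15 against 12 and 12 (adjusted p = 0.575), and Zmynd11, a reader of histone methylation, 2 and 11 against 9 and 9 (adjusted p = 0.888). Smchd1, Ep400 and Trim33 had adjusted p from 0.804 to 0.973 (edgeR). Ezh1, Ezh2, Suz12 and Eed, the core of the Polycomb complex that methylates histones, had no circRNA listed in any library.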

How the data were processed

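Total RNA of 4 libraries was read for circRNAs. CASAVA 1.8, BWA, edgeR and the build Rnor_6.0 appear in the submitters' processing notes with no role, and which program called circRNAs is not given there. The authors deposited, per the file headers, raw counts of junction reads and the same reads as SRPBM, a scaled signal that was 1 constant times the count within a library. One read was worth 0.0598 to 0.0786 SRPBM. Listed counts were 0 or at least 2.

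Junction reads were summed per host gene, and hosts and circRNAs with at least 5 reads in at least 2 libraries were tested with edgeR 4.0.16 (glmQLFit, glmQLFTest, TMM, two-sided, no covariates) in R 4.3.3, with Benjamini-Hochberg adjustment over all tested. SE is the size of the log2 change over the root of the F value. A log2 change uses TMM scaling and SRPBM does not. DESeq2 1.42.0, other scalings and filters, a replicate block, exonic circRNAs only, leaving out libraries and leaving out each host's most abundant circRNA were alternatives. In 10 simulations of 434 hosts the test recovered 53.9% of 4-fold and 91.9% of 8-fold changes, and in those of 428 circRNAs 47.3% and 86.5%. The simulations gave every feature the same dispersion and changed a large part of the features at once. The spread between the real replicates can be wider, so recovery in these data may be lower.

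The members, lists and rules were chosen with earlier results of these data known. By the naming rule, any member may be given with its reads. Full statistics went to the 14 tested members with the most reads, any with adjusted p under 0.05, and the 6 per direction with the smallest p whose groups did not overlap. Of the host symbols 72 matched the RefSeq table for GRCr8, and Suv420h1 matched as Kmt5b.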

Additional observations from a re-analysis of the deposited data

How the results depend on the processing

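There were 2 libraries a group, and most values rest on few reads. The fitted log2 changes of 17 members were recomputed under up to 14 alternatives, 207 values in all. Of these 176 kept direction and side of the threshold, 17 kept direction and newly passed, and 14 changed sign. Among hosts, 13 of the 17 never changed sign.

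All 14 sign changes belonged to Kat6b, Hdac2, Kmt2e and Rere. Kat6b took -0.15 with library size without TMM, -0.38 with SRPBM totals, -0.14 with at least 2 reads and with no filter, -0.22 without crush replicate 2 and -0.81 without sham replicate 2, and leaving out a library gave -0.81 to 1.73. Hdac2 took -0.15 with library size without TMM, -0.39 with SRPBM totals, -0.15 with at least 2 reads and with no filter, -0.02 without sham replicate 1 and -0.18 without sham replicate 2, in a range of -0.18 to 0.27. Kmt2e took -0.33 without sham replicate 1, in a range of -0.33 to 1.72, and Rere 0.35 without crush replicate 1, in a range of -0.57 to 0.35. Leaving out a library assumes that the lone one varies like the other group. The cause was not tested.

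Member hosts past the threshold numbered 0, but 1 (Cdyl) with DESeq2, 1 with exonic circRNAs only, 2 (Cdyl and Dot1l) with at least 10 reads, 2 (Cdyl and Arid1a) with no filter, and 0 to 8 when a library was left out, 8 without sham replicate 2. Member circRNAs past it numbered 2, but 0 with DESeq2, at least 2 reads or at least 10 reads, 1 with no filter, and 0 to 5 when a library was left out, 5 without sham replicate 2. DESeq2 gave no adjusted p for the 2 that passed edgeR. Over all hosts the count of 10 became 32 with DESeq2, 0 with at least 2 reads, 44 with at least 10, 39 with no filter, 20 with exonic circRNAs only and 0 to 84 when a library was left out. Over all circRNAs the count of 51 became 30 with DESeq2, 0 with at least 2 reads, 23 with at least 10 and 6 to 76 when a library was left out. SRPBM totals moved the median log2 change over all hosts from 0.11 to -0.30 and that of the tested members from 1.11 to 0.72. The share difference of 1.71 points was 2.40 with circRNAs of at least 2 libraries, 1.02 without Arid1a and 1.40 to 2.02 when a library was left out.

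With the replicate number as a block, 24 hosts passed, 1 of them a member (Cdyl, adjusted p = 0.0345, edgeR), and no circRNA passed, so 0 of the members' circRNAs. The labels do not tie the numbers to animals. Deviations of same-numbered libraries correlated at -0.06 over hosts and -0.11 over circRNAs, and with a crossed pairing, added after seeing the data, 0 hosts and 0 circRNAs passed, members included.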
